A study of Mus musculus with 12 samples.

Results

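The 9 genes described here encode the collagen IV chains Col4a1, Col4a2 and Col4a5, the laminin chains Lama4, Lama5, Lamb2, Lamb3 and Lamc1, and the linker protein nidogen 1 (Nid1). They were chosen by name, as genes of the basement membrane, from the 22630 genes measured in 12 mouse tumors. This choice was made with earlier results of these data known. All 9 were found and passed the filter of at least 10 counts summed over the tumors that left 17561 genes for testing. The tumors were grown from KCip53-1, a line made from 1 primary pancreatic tumor of a mouse whose alleles included Ptf1a-Cre, TREp53R270H and R26rtTa/rtTa, in which the Cre driver acts in pancreatic epithelium and doxycycline (dox) turns on a p53R270H transgene together with the reporter dsRed. The line was sorted for dsRed and, per the study, then grown in culture with dox. Its cells had thus been exposed to dox before injection, in every group. No-dox tumors are therefore no baseline of cells that had never met dox. The study also reports that the cells had lost wild-type p53. All tumors therefore shared 1 genotype that held the transgene, and dox is the only difference between groups that the labels give. Per the study's methods the dox water also held sucrose, and the water of no-dox mice is not described. Mice of the 4 no-dox tumors were never given dox. The 4 plus-dox tumors received it in drinking water at 0.2 g/l for 36 days. The 4 off-dox tumors had 33 days of dox followed by 3 days off it. The hosts were NSG mice, immunodeficient animals without T, B and NK cells, aged 8 to 10 weeks, and the cells were placed under the skin in Matrigel, itself an extract of basement membrane proteins. RNA came from whole tumors, so that tumor cells and host vessels, fibroblasts and muscle all contributed to a value, and fewer cells of a type cannot be told apart from less RNA per cell. Mice carried a pair of tumors each, and tumors of a group may have come from the same animal, in which case the p-values given here are too small.

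Basement membranes are thin sheets of matrix that underlie epithelium and surround vessels, muscle and fat. They rest on a pair of networks, one of laminin, a trimer of an alpha, a beta and a gamma chain that binds cell surface integrins and dystroglycan, and one of collagen IV, a trimer of alpha chains whose ends are crosslinked outside the cell. Nidogens and the heparan sulfate proteoglycans perlecan (Hspg2) and agrin (Agrn) connect both networks. The trimer of alpha 1 and alpha 2 chains is the collagen IV of nearly all tissues, whereas the alpha 3, alpha 4, alpha 5 and alpha 6 chains are more restricted. Laminins with the alpha 4 chain are typical of vessels, and the laminin that holds the Lama3 and Lamb3 chains is typical of epithelium and is laid down by many carcinomas.

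The tumors held between 19845923 and 33137609 counted reads. The share of mapped reads that fell on genes was 88.4% to 89.4% for no-dox, 82.2% to 87.1% for plus-dox and 81.1% to 85.8% for off-dox tumors, so it separated the no-dox tumors from all others. Levels are given as RPKM, reads scaled to a gene's exonic length and to the mapped reads of the library, which allows genes to be compared. Trp53 lay between 40.1 and 57.4 RPKM in no-dox, 40.4 and 56.0 in plus-dox and 41.6 and 45.4 in off-dox tumors, and since these ranges overlapped, its level was no check of the dox labels. A pair of tumors stood apart by low Epcam, plus-dox 2 with 7.76 RPKM of this epithelial adhesion molecule and off-dox 4 with 40.9 RPKM. The other 10 held 72.3 to 388 RPKM. The summed RPKM of 12 epithelial markers did not single out this pair, with 1367 in plus-dox 2 and 1571 in off-dox 4. Its lowest value, 1082, was that of off-dox 3. The main results that rest on plus-dox 2 and off-dox 4 are given with and without them.

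None of the 9 genes differed between any groups beyond the limits of the study, which ask for a mean RPKM over 0.25, a fold change over 1.5 and an adjusted p under 0.1. This held for plus-dox against no-dox tumors (background: 0 of 17561 genes called, or 0%), for off-dox against no-dox tumors (235 genes, or 1.34%) and for off-dox against plus-dox tumors (0 genes, or 0%), in edgeR's quasi-likelihood test with Benjamini-Hochberg adjustment over all genes tested. Before adjustment for the number of genes, 5 of the 9 genes were higher in plus-dox than in no-dox tumors at p under 0.05 and none was lower, where the background was 8.00% of genes higher and 5.67% lower. These 5 were Col4a1, Col4a2, Lama4, Lama5 and Nid1, with adjusted p-values from 0.326 to 0.35. In off-dox against no-dox tumors 2 of the 9, Col4a2 and Lama5, were higher at that level, against a background of 10.9% higher and 9.48% lower. Between off-dox and plus-dox tumors none of the 9 reached it in either direction, with a background of 1.25% higher and 1.81% lower. Without plus-dox 2 and off-dox 4 these counts were 3 and 1 of the 9 genes against no-dox tumors, and with the share of reads on genes as a covariate, which cannot be told apart from the dox groups, 1 and 0. Leaving out 1 tumor took the plus-dox count from 5 to 1 (without no-dox 1), to 2 (without no-dox 2, no-dox 4, plus-dox 2 or plus-dox 3) or to 4 (without no-dox 3 or plus-dox 4), and the off-dox count from 2 to 0 without off-dox 4, 1 without no-dox 1 and 3 without off-dox 3. In off-dox against plus-dox tumors it was 1 without plus-dox 1, plus-dox 2 or off-dox 4. In the joint test of all 3 groups the edgeR adjusted p-values of the 9 genes ran from 0.300 to 0.874. The median fitted difference of the 9 genes was 0.36 on the log2 scale for plus-dox against no-dox and 0.19 for off-dox against no-dox, where the median over all genes tested was 0.01 in each, and −0.06 for off-dox against plus-dox. The comparisons with no-dox tumors share those 4 tumors. Because the 9 genes were chosen with earlier results known, their counts and medians beside the background are a description and no independent test. The background count of 235 genes called in off-dox against no-dox tumors depended on single tumors, with 0 called without no-dox 1, 2 or 4, plus-dox 4 or off-dox 2, 3 or 4, 1 without no-dox 3, 19 without plus-dox 3 and 789 without off-dox 1. Of all genes tested, 2400 had an unadjusted p under 0.05 for plus-dox against no-dox tumors and 537 for off-dox against plus-dox tumors in edgeR. DESeq2 called 128 genes in the former without moderated fold changes and 90 with them, and 6 and 4 in the latter, and 0 of the 9 genes were among its calls in any comparison.

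**Figure D1:**
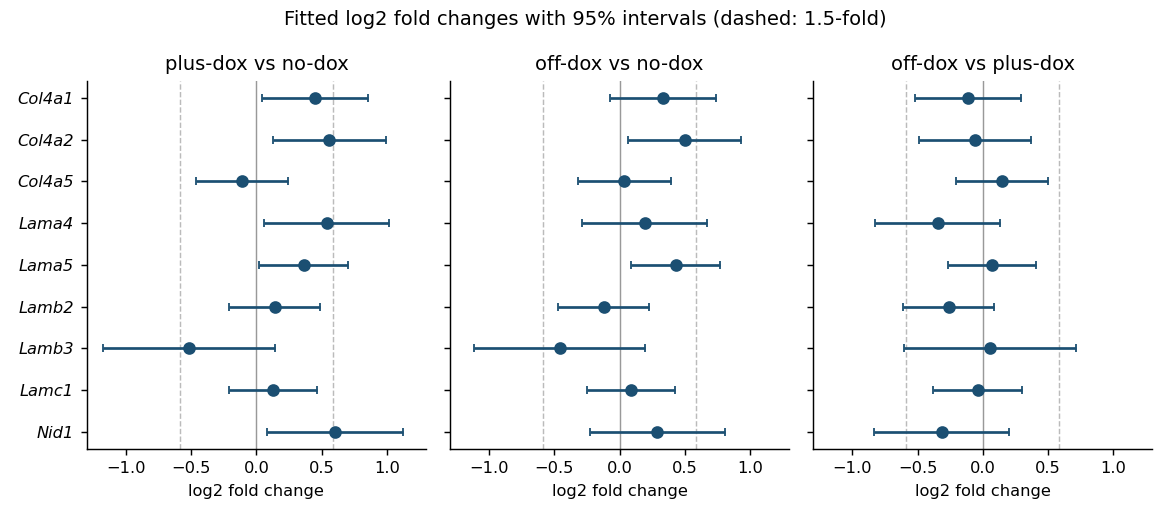
Fitted log2 fold changes (x axis) of the 9 genes (y axis) for the 3 pairs of groups, with points for the estimate, bars for the 95% interval and dashed lines at 1.5-fold. The intervals of Col4a1, Col4a2, Lama4, Lama5 and Nid1 lie above 0 for plus-dox against no-dox, while all 9 intervals cross 0 for off-dox against plus-dox.

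Across the 12 tumors Col4a1 had the highest mean level of the 9 genes, 60.1 RPKM, followed by Lama5 with 44.95, Nid1 with 41.5, Lamc1 with 40.5, Col4a2 with 34.9, Lamb3 with 30.1, Lamb2 with 22.04, Lama4 with 8.30 and Col4a5 with 7.25 RPKM. Col4a1 exceeded Lama5 in 12 of 12 tumors, although their ranges over tumors overlapped. Nid1 exceeded Lamc1 in 6 of 12 tumors and Col4a2 exceeded Lamb3 in 6 of 12, so that these neighbours had no fixed order. A clear gap lay between Lamb2 and Lama4, since the lowest Lamb2 value, 17.1 RPKM, was above the highest Lama4 value, 13.9 RPKM. Lama4 and Col4a5 again overlapped, with Lama4 the higher in 6 of 12 tumors. The order shifted with the group in the middle of the scale, where Lamb3 had rank 3 of 9 in no-dox tumors with a mean of 37.5 RPKM and rank 6 in plus-dox and off-dox tumors with 26.0 and 26.8 RPKM. Counts behind these values were high, with at least 954 reads for Lama4, the lowest count of any of the 9 genes in a tumor, and up to 22030 for Lama5. Lamc1 varied least among the tumors, with a coefficient of variation of 12.7%, and Lamb3 the most, with 33.6%.

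**Figure D2:**
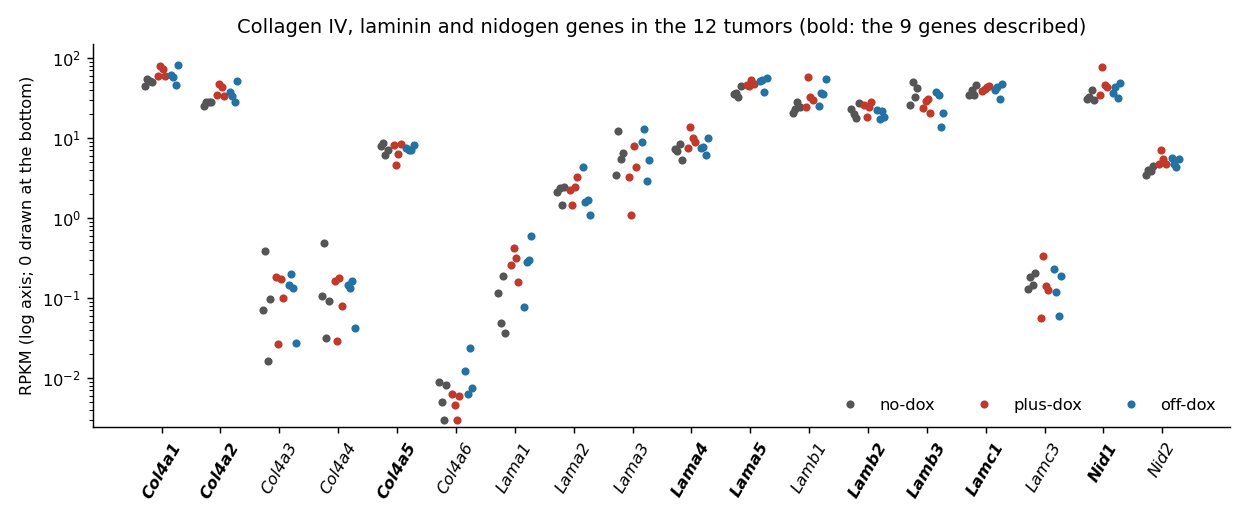
Level in RPKM (log axis) of 6 collagen IV, 10 laminin and 2 nidogen genes in each of the 12 tumors, colored by group, with the 9 genes described here in bold. Of the collagen IV chains, Col4a1, Col4a2 and Col4a5 were well above the rest, and Col4a6 did not exceed 0.0234 RPKM in any tumor.

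Col4a1 (chr8:11198423-11312826 in mm9, minus strand) encodes the alpha 1 chain, of which the main collagen IV trimer holds a pair. Its levels were 44.8, 54.9, 52.0 and 49.8 RPKM in no-dox tumors 1 to 4, 59.7, 79.6, 73.2 and 59.5 RPKM in plus-dox tumors and 60.7, 57.9, 46.2 and 82.9 RPKM in off-dox tumors. Every plus-dox tumor was above every no-dox tumor, while off-dox tumors ranged from within the no-dox group to above all others. The fitted difference was 0.45 ± 0.19 (SE) on the log2 scale for plus-dox against no-dox, or 1.36-fold (95% interval 0.04 to 0.85, edgeR adjusted p = 0.346). For off-dox against no-dox tumors it was 0.33 ± 0.19 (SE, edgeR adjusted p = 0.331).

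Col4a2 (chr8:11312829-11449287 in mm9, plus strand), its neighbour on the chromosome, encodes the alpha 2 chain of the same trimer. No-dox tumors held 24.96, 28.3, 27.9 and 28.0 RPKM, plus-dox tumors 34.4, 47.6, 44.0 and 33.2 RPKM, and off-dox tumors 37.5, 33.2, 28.2 and 51.7 RPKM. As for Col4a1, the plus-dox tumors were all above the no-dox tumors, and off-dox tumor 3 fell within the no-dox range. Col4a1 and Col4a2 were thus 2 of the 9 genes that were free of overlap in RPKM between plus-dox and no-dox tumors, and 4.30% of all genes tested were higher in every plus-dox tumor. The fitted difference was 0.56 ± 0.20 (SE) for plus-dox against no-dox, or 1.47-fold (95% interval 0.13 to 0.99, edgeR adjusted p = 0.326), and 0.50 ± 0.20 (SE) for off-dox against no-dox (edgeR adjusted p = 0.191). In off-dox against no-dox tumors none of the 9 genes separated the groups, with a background of 4.99% higher in every off-dox tumor. An exact permutation test of mean log2 CPM (counts scaled to library size) over 4 against 4 tumors, whose smallest two-sided p is 0.0286, gave 0.0286 for plus-dox against no-dox for Col4a1 and for Col4a2, and with any no-dox tumor left out 0.0857 for Col4a1 and 0.0571 or 0.0857 for Col4a2. Without off-dox 4 the difference of off-dox from no-dox tumors was 0.14 for Col4a1 and 0.28 for Col4a2.

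Col4a1 and Col4a2 are transcribed in opposite directions, and their promoter windows are shown because the levels of the pair moved together over the tumors. On GRCm38.p6 their starts are 21 bases apart, with the Col4a2 start (11312805) inside Col4a1 (start 11312826). In the mm9 models behind the counts the genes do not overlap, with Col4a1 ending at 11312826 and Col4a2 beginning at 11312829. The windows are from RefSeq on GRCm38.p6, from 250 bases before to 50 after the start, in the direction of the gene, chr8:11312777-11313076 (minus strand) for Col4a1 and chr8:11312555-11312854 (plus strand) for Col4a2. Capitals mark the GC box GGGCGG, the motif CCAAT and the motif TATAAA on either strand.
Col4a1: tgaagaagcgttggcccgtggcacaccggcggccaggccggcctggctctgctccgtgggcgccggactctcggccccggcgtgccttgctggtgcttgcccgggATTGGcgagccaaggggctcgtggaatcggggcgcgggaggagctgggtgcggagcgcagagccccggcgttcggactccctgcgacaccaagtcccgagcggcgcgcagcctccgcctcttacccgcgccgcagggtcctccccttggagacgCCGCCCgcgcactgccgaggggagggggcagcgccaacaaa
Col4a2: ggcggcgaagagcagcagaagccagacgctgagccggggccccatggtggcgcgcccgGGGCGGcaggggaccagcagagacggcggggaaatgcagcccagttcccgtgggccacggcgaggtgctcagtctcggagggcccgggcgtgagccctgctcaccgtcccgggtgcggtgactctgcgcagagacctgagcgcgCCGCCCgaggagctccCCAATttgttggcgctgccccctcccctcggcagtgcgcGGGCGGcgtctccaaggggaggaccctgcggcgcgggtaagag
The windows share 78 bases. Col4a1 held 1 GC box and 1 CCAAT, Col4a2 held 3 GC boxes and 1 CCAAT, and neither held TATAAA. The GC box of Col4a1 lies in the shared bases and is the same site as the last GC box of Col4a2, read on the other strand. Of all 32851 windows of the table, 35.7% held a GC box, 37.4% a CCAAT and 13.6% a TATAAA. Within each of the windows shown the motifs do not overlap one another. The content of G and C was 74.0% and 73.7%, against a median of 52.7% over all windows.

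The ratio of Col4a2 to Col4a1 stayed in a narrow range, from 0.516 to 0.624 over the 12 tumors, although each gene alone ranged 1.85-fold and 2.07-fold. It was 0.558, 0.516, 0.536 and 0.562 in no-dox tumors, 0.576, 0.598, 0.601 and 0.558 in plus-dox tumors and 0.618, 0.573, 0.609 and 0.624 in off-dox tumors. All off-dox ratios were above all no-dox ratios, with a difference of 0.16 on the log2 scale (exact permutation p = 0.0286, the smallest possible, adjusted p = 0.257 over 18 tests), which did not pass the threshold. Over the 12 tumors, log2 CPM of the pair had a Pearson r of 0.98 and a Spearman rho of 0.97 (0.96 and 0.94 over 10 tumors without plus-dox 2 and off-dox 4), and among 12694 genes with a mean RPKM over 1 each was the most similar gene to the other.

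Col4a5 (chrX:137909962-138123778 in mm9, plus strand) encodes the alpha 5 chain, which pairs with alpha 3 and alpha 4 or with alpha 6. Its levels were 7.91, 8.65, 6.13 and 7.11 RPKM in no-dox tumors, 8.07, 4.54, 6.34 and 8.47 RPKM in plus-dox tumors and 7.49, 7.11, 7.09 and 8.12 RPKM in off-dox tumors. The groups overlapped fully, and the lowest value was that of plus-dox 2. Differences were −0.11 ± 0.16 (SE, 95% interval −0.47 to 0.24) for plus-dox and 0.04 ± 0.16 (SE, 95% interval −0.32 to 0.39) for off-dox against no-dox tumors, with edgeR adjusted p-values of 0.755 and 0.916, and the sign of each changed without single tumors. The possible partners of the alpha 5 chain were low. Col4a3 ranged from 0.0162 to 0.388 RPKM, Col4a4 from 0.0291 to 0.481 RPKM and Col4a6 from 0 to 0.0234 RPKM. The ratio of Col4a5 to Col4a1 ranged from 0.0571 in plus-dox 2 to 0.177 in no-dox 1 and did not differ between groups in the exact test (adjusted p from 0.429 to 0.588).

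Col4a5 and Col4a6 form another head-to-head pair, with starts 1343 bases apart, and their windows are shown as a pair of which only Col4a5 was measured above 0.1 RPKM. They lie at chrX:141475169-141475468 (plus strand) and chrX:141474027-141474326 (minus strand) of GRCm38.p6, with capitals as before.
Col4a5: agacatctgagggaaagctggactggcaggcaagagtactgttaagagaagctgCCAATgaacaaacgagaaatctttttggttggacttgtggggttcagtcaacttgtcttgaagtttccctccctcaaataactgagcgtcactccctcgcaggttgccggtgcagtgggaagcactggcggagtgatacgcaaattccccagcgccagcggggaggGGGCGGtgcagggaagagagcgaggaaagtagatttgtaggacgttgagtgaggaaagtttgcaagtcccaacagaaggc
Col4a6: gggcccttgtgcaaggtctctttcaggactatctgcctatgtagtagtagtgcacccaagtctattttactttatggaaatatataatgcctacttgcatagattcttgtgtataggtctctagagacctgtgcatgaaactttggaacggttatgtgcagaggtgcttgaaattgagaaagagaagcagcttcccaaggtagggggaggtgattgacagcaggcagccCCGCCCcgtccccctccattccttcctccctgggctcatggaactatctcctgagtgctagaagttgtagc
Col4a5 held 1 GC box and 1 CCAAT and Col4a6 held 1 GC box, with 52.7% and 48.3% of G and C. The windows share no bases.

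**Figure D3:**
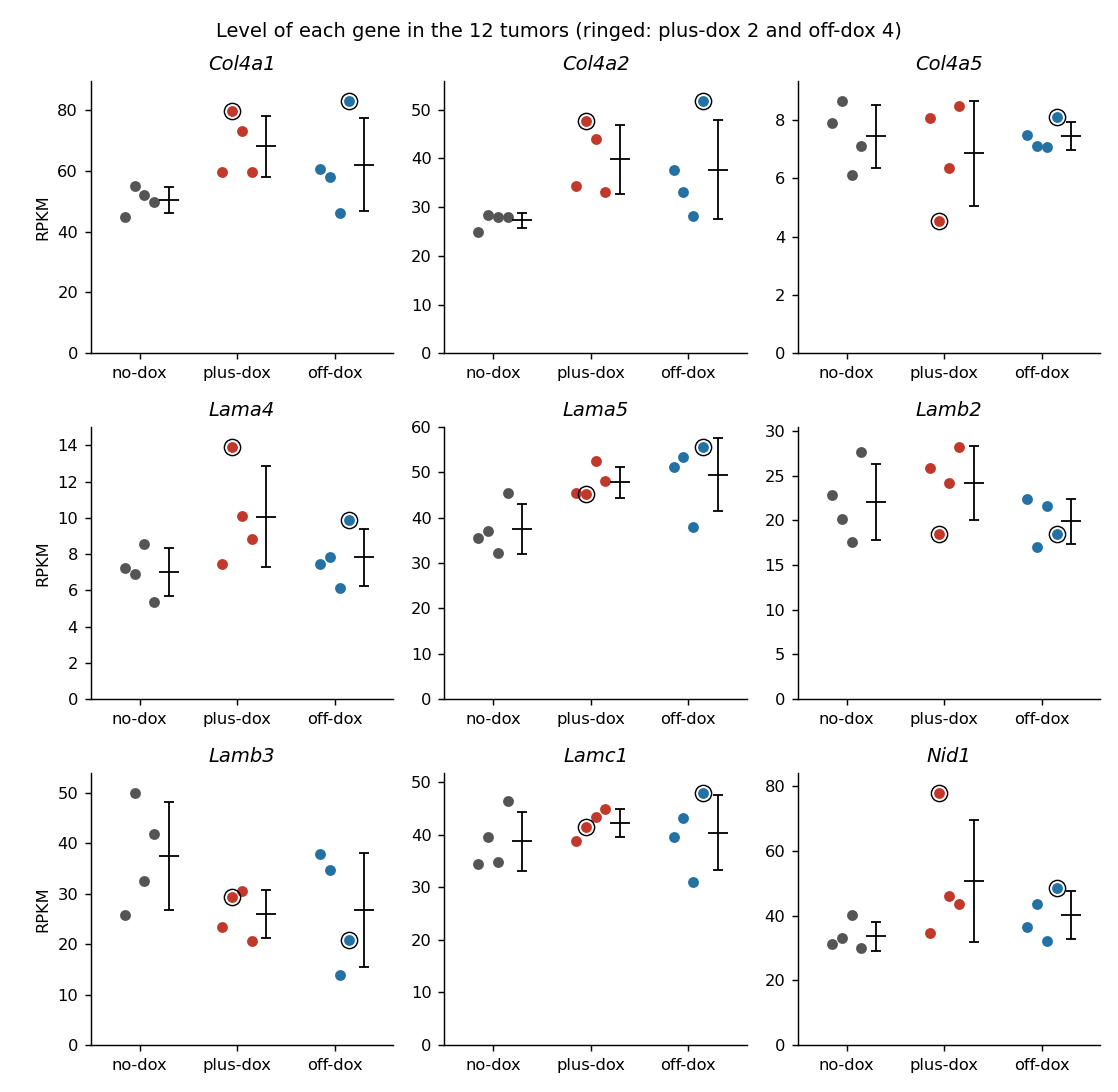
Level in RPKM (y axis) of each of the 9 genes in the 4 tumors of each group (x axis), with points for tumors, a bar for the mean and its SD beside them, and rings around plus-dox 2 and off-dox 4. Col4a1 and Col4a2 are the genes whose plus-dox points all lie above the no-dox points, and the ringed plus-dox tumor is the highest point for Nid1 and Lama4 and the lowest for Col4a5.

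Lama5 (chr2:179911078-179960564 in mm9, minus strand) encodes the laminin alpha 5 chain, the most widespread alpha chain of adult epithelium and vessels. No-dox tumors held 35.5, 37.0, 32.2 and 45.3 RPKM, plus-dox tumors 45.5, 45.2, 52.6 and 48.0 RPKM, and off-dox tumors 51.2, 53.4, 37.9 and 55.6 RPKM. No-dox tumor 4 reached the lowest plus-dox values, and off-dox tumor 3 lay within the no-dox range, so that the groups overlapped in both comparisons with no-dox tumors. The difference was 0.36 ± 0.16 (SE) for plus-dox against no-dox (1.28-fold, edgeR adjusted p = 0.35). For off-dox against no-dox it was 0.43 ± 0.16 (SE, 1.35-fold, edgeR adjusted p = 0.162), the lowest adjusted p of the 9 genes in any comparison. DESeq2 without moderated fold changes gave an adjusted p of 0.074 for that difference, under 0.1, but the change remained under 1.5-fold.

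Lama4 (chr10:38685321-38829994 in mm9, plus strand) encodes the alpha 4 chain of vessel laminins. Its levels were 7.23, 6.92, 8.54 and 5.36 RPKM in no-dox tumors, 7.43, 13.9, 10.1 and 8.83 RPKM in plus-dox tumors and 7.44, 7.82, 6.13 and 9.90 RPKM in off-dox tumors. Plus-dox 2 was the highest, 3 of 4 plus-dox tumors were above all no-dox tumors, and off-dox tumors overlapped both groups. The difference of plus-dox from no-dox tumors was 0.54 ± 0.22 (SE, 1.45-fold, edgeR adjusted p = 0.340), and 0.34 without plus-dox 2. The summed RPKM of 15 endothelial markers was 71.2 to 97.8 in no-dox, 84.8 to 225 in plus-dox and 75.04 to 114 in off-dox tumors. None of the 15 was at 0 in any tumor, and plus-dox 2 held the 225. Sums of mural and of fibroblast markers were highest in plus-dox 2 as well, with 273 and 3573 RPKM. The part of these lists in the Lama4 values was not tested. The ratio of Lama4 to Lama5 ranged from 0.118 to 0.307 and its largest difference, −0.38 on the log2 scale for off-dox against plus-dox tumors, had an exact permutation p of 0.0571 (adjusted p = 0.343 over 18 tests).

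The other laminin alpha genes had lower means than Lama4, although Lama3 exceeded Lama4 in single tumors such as no-dox 2. Lama3, the alpha chain of the epithelial laminin, ranged from 1.10 RPKM in plus-dox 2 to 13.0 RPKM in off-dox 2. Lama2, the alpha chain of muscle and nerve laminins, ranged from 1.10 to 4.32 RPKM, and Lama1, best known from embryonic basement membranes, from 0.0368 to 0.591 RPKM. Lama1 had the largest differences of these, 1.59 ± 0.63 (SE) for plus-dox and 1.72 ± 0.63 (SE) for off-dox against no-dox tumors, with edgeR adjusted p-values of 0.336 and 0.165 that did not pass the threshold. Lama2 and Lama3 had adjusted p-values from 0.581 to 1 in the 3 comparisons.

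Lamb2 (chr9:108382193-108392861 in mm9, plus strand) and Lamb3 (chr1:195128188-195170072 in mm9, plus strand) encode beta chains that do not replace one another, since Lamb3 occurs in the epithelial laminin and Lamb2 in laminins of vessels, muscle and kidney. Lamb2 held 22.8, 20.1, 17.6 and 27.6 RPKM in no-dox tumors, 25.9, 18.5, 24.2 and 28.2 RPKM in plus-dox tumors and 22.5, 17.1, 21.6 and 18.4 RPKM in off-dox tumors. Its groups overlapped, with differences of 0.14 ± 0.16 (SE) for plus-dox and −0.12 ± 0.16 (SE) for off-dox against no-dox (edgeR adjusted p of 0.682 and 0.687).

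Lamb3 held 25.7, 50.0, 32.5 and 41.9 RPKM in no-dox tumors, 23.4, 29.3, 30.6 and 20.6 RPKM in plus-dox tumors and 37.9, 34.6, 13.9 and 20.8 RPKM in off-dox tumors. It was the most uneven of the 9 genes within the no-dox and off-dox groups, and its range of 3.60-fold over the 12 tumors was the widest. Its mean was lower in both dox-treated groups, by −0.51 ± 0.30 (SE, 95% interval −1.17 to 0.14, edgeR adjusted p = 0.448) in plus-dox and −0.46 ± 0.30 (SE, edgeR adjusted p = 0.405) in off-dox tumors, neither of which passed the threshold. The off-dox value was −0.24 without off-dox 3 and −0.09 with the share of reads on genes as a covariate. Its partner Lama3 had a Pearson r with Lamb3 of 0.57 and a Spearman rho of 0.76 over 12 tumors (0.83 and 0.82 over 10 tumors without plus-dox 2 and off-dox 4). In plus-dox 2 the chains parted, since Lama3 was at its lowest of the 12 tumors while Lamb3 stood at 29.3 RPKM. Lamb1, the most common beta chain, ranged from 20.5 to 58.0 RPKM with its highest values in plus-dox 2 and in off-dox 4 (54.3 RPKM), and a difference of 0.68 ± 0.29 (SE, edgeR adjusted p = 0.217) for off-dox against no-dox tumors that was 0.43 without off-dox 4.

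**Figure D4:**
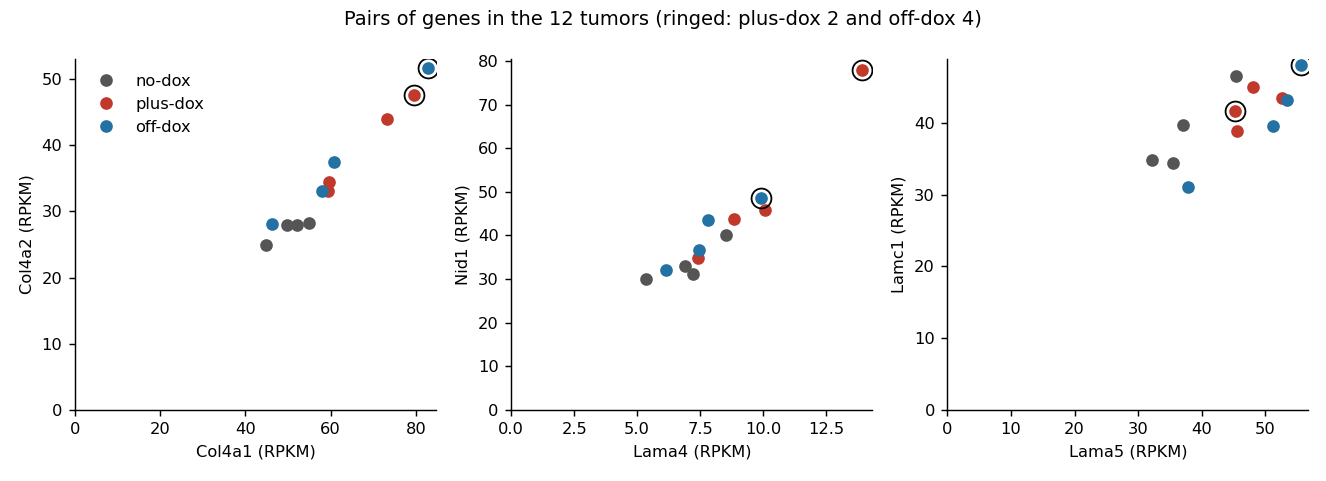
Levels in RPKM of 3 pairs of genes in the 12 tumors, Col4a2 against Col4a1, Nid1 against Lama4 and Lamc1 against Lama5, colored by group, with rings around plus-dox 2 and off-dox 4. Col4a2 and Col4a1 lie along a line, and the ringed plus-dox tumor lies at the top right for Nid1 and Lama4 but in the middle for Lamc1 and Lama5.

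Lamc1 (chr1:155066052-155179916 in mm9, minus strand) encodes the gamma 1 chain, shared by most laminins other than the epithelial one. Its levels were 34.4, 39.7, 34.8 and 46.5 RPKM in no-dox tumors, 38.8, 41.6, 43.5 and 45.0 RPKM in plus-dox tumors and 39.5, 43.2, 31.1 and 48.0 RPKM in off-dox tumors. It was the steadiest of the 9 genes, with differences of 0.13 ± 0.16 (SE, 95% interval −0.21 to 0.47) and 0.09 ± 0.16 (SE, 95% interval −0.25 to 0.43) from no-dox tumors (edgeR adjusted p of 0.702 and 0.770). Against this gene Lamb3 was lower in every plus-dox tumor. The ratio of Lamb3 to Lamc1 was 0.747, 1.26, 0.933 and 0.903 in no-dox tumors, 0.604, 0.705, 0.704 and 0.457 in plus-dox tumors and 0.959, 0.802, 0.447 and 0.434 in off-dox tumors. The difference of −0.63 on the log2 scale between plus-dox and no-dox tumors had an exact permutation p of 0.0286, the smallest possible, and did not pass the threshold after adjustment (adjusted p = 0.257 over 18 tests). The sum of 12 epithelial markers was lower in every plus-dox tumor as well, 1367 to 2066 RPKM against 2331 to 3148 RPKM in no-dox tumors. It was 1082 to 2698 RPKM in off-dox tumors, and none of the 12 was at 0 in any tumor. Krt8 and Krt18 weighed most in this sum, with no-dox means of 926 and 820 RPKM. In plus-dox against no-dox tumors 10 of the 12 had a negative and 2 a positive fitted difference. At unadjusted p under 0.05 in edgeR 1 was lower and 1 higher, with a background of 5.67% lower and 8.00% higher. The part of this list in the Lamb3 values was not tested. Lamc3, another gamma chain, did not exceed 0.335 RPKM.

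Nid1 (chr13:13529869-13604542 in mm9, plus strand) encodes nidogen 1, which binds the laminin gamma 1 chain and collagen IV. Its levels were 31.2, 33.1, 40.2 and 30.0 RPKM in no-dox tumors, 34.8, 78.0, 45.9 and 43.7 RPKM in plus-dox tumors and 36.6, 43.6, 32.1 and 48.5 RPKM in off-dox tumors. Plus-dox 2 stood far above all others, and no-dox 3 lay above the lowest plus-dox tumor. The fitted difference of plus-dox from no-dox tumors was 0.60 ± 0.24 (SE, 1.52-fold, edgeR adjusted p = 0.336) and 0.31 without plus-dox 2, and that of off-dox tumors 0.29 ± 0.24 (SE, edgeR adjusted p = 0.509). The ratio of Nid1 to Lamc1 was 1.88 in plus-dox 2 and between 0.646 and 1.16 in the other 11 tumors. Nid2, the related nidogen, ranged from 3.43 to 7.15 RPKM and was above every no-dox tumor in every plus-dox tumor in RPKM, but not in log2 CPM (0.49 ± 0.17, SE, edgeR adjusted p = 0.326).

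Of the proteoglycans that join the networks, Hspg2 had the smallest p-value of the basement membrane components listed. It held 19.6, 21.0, 20.4 and 22.3 RPKM in no-dox tumors, 26.1, 29.5, 34.7 and 36.0 RPKM in plus-dox tumors and 27.6, 26.7, 28.2 and 32.6 RPKM in off-dox tumors. All 8 tumors given dox were above all no-dox tumors. The difference was 0.61 ± 0.13 (SE, 1.53-fold, edgeR adjusted p = 0.322) for plus-dox against no-dox and 0.49 ± 0.13 (SE, 1.41-fold, edgeR adjusted p = 0.0967) for off-dox against no-dox. It was not called in either, since the former missed the adjusted p and the latter the 1.5-fold limit, whereas DESeq2 without moderated fold changes called the former (adjusted p = 0.0105) and DESeq2 with moderated fold changes did not (0.57 on the log2 scale, under 1.5-fold). With the share of reads on genes as a covariate, the differences of Hspg2 were 0.42 and 0.23 with adjusted p-values of 1.00, where the smallest of any gene was 0.9996 and 0.9998, and that share and the dox groups cannot be told apart. Agrn ranged from 24.6 RPKM in plus-dox 2 to 123 RPKM in no-dox 2, with edgeR adjusted p-values of 0.902 and 0.828 against no-dox tumors.

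Some of the genes varied together when their log2 CPM values were correlated across the 12 tumors, which share library preparation and differ in depth and in cell content. No clustering was run. Col4a1, Col4a2, Lama4 and Nid1 had pairwise Pearson r values from 0.79 to 0.98, and Lama4 and Nid1, which lie on different chromosomes, had an r of 0.95 and a Spearman rho of 0.92. Lama5 and Lamc1 had an r of 0.81 and a rho of 0.83, and both also varied with the collagen IV pair, with r from 0.67 to 0.79. Lamb2 had an r between −0.36 and 0.30 with each of the other 8 genes and Lamb3 one between −0.13 and 0.34. Col4a5 had its lowest values with Nid1 (r = −0.67, rho = −0.27) and Lama4 (r = −0.58, rho = −0.30). Without plus-dox 2 and off-dox 4 the values among Col4a1, Col4a2, Lama4 and Nid1 were 0.66 to 0.96 over 10 tumors, and those of Col4a5 with Nid1 and Lama4 were −0.42 and −0.36. Lama5 then had an r of 0.76 with Col4a1 and 0.83 with Col4a2, where Lama4 had 0.74 and 0.66. Over these 10 tumors Lamb2 ranged up to an r of 0.42 and Lamb3 up to 0.53, each with Lamc1.

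**Figure D5:**
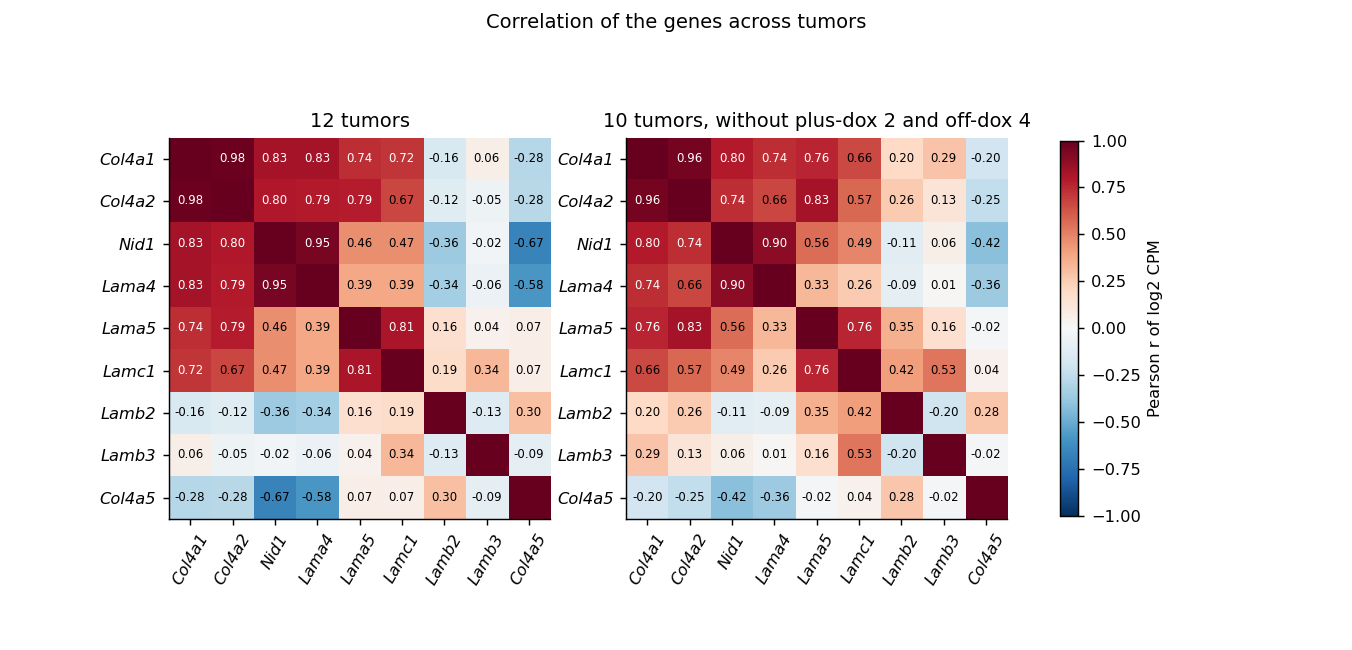
Pearson correlation of log2 CPM between the 9 genes (both axes) over 12 tumors on the left and over 10 tumors, without plus-dox 2 and off-dox 4, on the right, with the color scale from −1 to 1 and values printed in the cells. Col4a1, Col4a2, Nid1 and Lama4 have high values with one another in both, and Col4a5, Lamb2 and Lamb3 have lower values with them. On the right Lama5 has higher values with Col4a1 and Col4a2 than Lama4 has.

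For each gene the 3 most similar of 12694 genes were named as a description. After Col4a2, Col4a1 was most like S1pr3, a receptor for sphingosine 1-phosphate (r = 0.94, rho = 0.94), and Nploc4 (r = 0.93, rho = 0.84). Col4a2 was next most like Rusc2 (r = 0.93, rho = 0.87) and Dip2a (r = 0.92, rho = 0.88). Lama4 was most like Fkbp10, a collagen chaperone (r = 0.97, rho = 0.94), Col5a3, a chain of the fibrillar collagen V (r = 0.96, rho = 0.92), and the sulfatase Sulf1 (r = 0.95, rho = 0.97). Sulf1 also stood among the 3 genes most like Nid1 (r = 0.96, rho = 0.90), with B4galt5 and Chst11 (r = 0.96 for each, rho = 0.92 and 0.94). Lama5 was most like Hipk2 (r = 0.97, rho = 0.99), Kdm6b (r = 0.96, rho = 0.99) and Fndc3b (r = 0.96, rho = 0.94), and Lamc1 like Atf6, a sensor of the unfolded protein response (r = 0.96, rho = 0.97), Foxp1 (r = 0.96, rho = 0.97) and Glg1 (r = 0.94, rho = 0.91). Lamb2 was most like Tle3 (r = 0.95, rho = 0.98), Gtf2ird2 (r = 0.89, rho = 0.86) and Sema3f (r = 0.89, rho = 0.87), and Lamb3 like Rell1 (r = 0.96, rho = 0.92), Tspan14 (r = 0.91, rho = 0.87) and Plekhb2 (r = 0.91, rho = 0.92). The genes most like Col4a5 had lower values, Sgsm2 (r = 0.87, rho = 0.57), Ing4 (r = 0.86, rho = 0.59, and r = 0.36 without plus-dox 2 and off-dox 4) and Plce1 (r = 0.84, rho = 0.71).

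The rest of the basement membrane machinery was read from lists, from which Hspg2, Col7a1, P4hb, Hpse, Mmp9 and Mmp7 were singled out after their values were seen. Of 26 other components, 6 were higher at unadjusted p under 0.05 in plus-dox than in no-dox tumors and 6 in off-dox than in no-dox tumors, none was lower, and none was called, where the background was 8.00% and 10.9% of genes higher. Their median differences were 0.05 and 0.15. The fitted difference of Col7a1, the anchoring fibril collagen, between off-dox and no-dox tumors was 1.67 ± 0.49 (SE, edgeR adjusted p = 0.112), with 8.07 to 15.8 RPKM in no-dox and 12.1 to 61.1 RPKM in off-dox tumors. Without plus-dox 2 and off-dox 4 it was 1.22 ± 0.34 (SE, edgeR adjusted p = 0.0884), within the limits for a call. Of 11 genes that assemble or crosslink collagen IV, none was called and P4hb, the shared subunit of prolyl hydroxylases, was lower in every tumor given dox (344 to 584 against 614 to 735 RPKM in no-dox tumors, edgeR adjusted p of 0.347 for plus-dox and 0.136 for off-dox). Serpinh1, the collagen chaperone, and Pxdn and Loxl2, which crosslink the network, had adjusted p-values from 0.335 to 0.934 against no-dox tumors. Of 13 receptors none was called, and at unadjusted p under 0.05 the discoidin receptor Ddr2 was higher in plus-dox tumors and Cd151, a partner of laminin-binding integrins, lower in off-dox tumors than in no-dox tumors.

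Of 10 basement membrane proteases and related enzymes, 1 was called. Hpse, heparanase, which cleaves heparan sulfate chains, fell in off-dox against no-dox tumors. It held 17.9, 21.98, 18.1 and 15.6 RPKM in no-dox tumors, 14.6, 11.6, 13.9 and 14.97 RPKM in plus-dox tumors and 13.3, 12.6, 10.6 and 6.40 RPKM in off-dox tumors. The change was −0.76 ± 0.18 (SE, 0.591-fold, edgeR adjusted p = 0.0884), and the call was lost in 14 of 21 alternatives, among them leaving out any 1 no-dox tumor, plus-dox tumor 3 or 4, or off-dox tumor 2, 3 or 4 (adjusted p from 0.107 to 0.218), or the off-dox 4 and plus-dox 2 tumors together, where the change of −0.58 was under 1.5-fold. Mmp9, a gelatinase that degrades collagen IV, had the largest difference in plus-dox tumors, 1.90 ± 0.86 (SE, edgeR adjusted p = 0.360), and 0.52 without plus-dox 2. Plus-dox 2 held 173 RPKM, each other plus-dox tumor and each no-dox tumor at most 32.5 RPKM, and off-dox 4 held 111 RPKM. Matrilysin, Mmp7, was at its lowest in the same tumors, with 5.33 and 18.6 RPKM against 77.7 to 421 RPKM in the other 10.

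Markers of other cells varied among the tumors, and their part in the values above was not tested. Of 7 lists, the summed level was free of overlap between groups for epithelial markers (lower in plus-dox than in no-dox tumors) and for fibroblast markers (lower in off-dox than in plus-dox tumors), and it overlapped in all 3 comparisons for the other 5. In plus-dox against no-dox tumors all 15 endothelial, 10 mural and 10 muscle markers had positive fitted differences. At unadjusted p under 0.05 in edgeR 8, 5 and 3 of these were higher (background 8.00%). Of 9 adipocyte and 9 macrophage markers, 8 and 4 were negative. In off-dox against no-dox tumors 12 endothelial, 9 mural and 10 muscle markers were positive, and 9 adipocyte and 3 macrophage markers negative. Of the former, 1, 3 and 8 were higher at that level (background 10.9%). Over the listed genes with a mean RPKM over 1, the largest differences from no-dox tumors were those of Myh4, a muscle myosin, with 4.07 ± 1.43 (SE, edgeR adjusted p = 0.326) in plus-dox and 5.15 ± 1.50 (SE, edgeR adjusted p = 0.111) in off-dox tumors. The muscle gene Actn3 was called in off-dox tumors (4.53 ± 1.09, SE, edgeR adjusted p = 0.0876), and the sum of 10 muscle markers ranged from 10.8 to 185 RPKM in no-dox, 153 to 469 RPKM in plus-dox and 12.9 to 1294 RPKM in off-dox tumors. The lowest were Epcam in plus-dox against no-dox tumors (−1.15 ± 0.73, SE, edgeR adjusted p = 0.478) and the adipocyte gene Retn in off-dox against no-dox (−2.86 ± 1.38, SE, edgeR adjusted p = 0.263) and against plus-dox tumors (−2.19 ± 1.36, SE, edgeR adjusted p = 1), where Mylpf of muscle was the highest (1.65 ± 0.96, SE, edgeR adjusted p = 1). Sums of 9 adipocyte markers spanned 15.4 to 1362 RPKM within the no-dox group alone. Mural markers, 10 genes of pericytes and smooth muscle that surround vessels, summed to 150 to 222 RPKM in no-dox, 171 to 273 RPKM in plus-dox and 169 to 250 RPKM in off-dox tumors, 12 fibroblast markers to 1377 to 2467, 1948 to 3573 and 1587 to 1825 RPKM, and 9 macrophage markers to 1054 to 1430, 1064 to 1320 and 988 to 1667 RPKM.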

How the data were processed

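RNA-seq values of 12 subcutaneous tumors, 4 in each of 3 groups, were taken from the deposited gene tables, 1 for each tumor. Per the study's methods, the authors mapped single-end reads to mm9 (submitters' processing notes: CASAVA 1.8.2, Bowtie 0.12.8, TopHat 1.4.1, bedtools 2.16.2, with hg19 also listed as a build) and condensed RefSeq isoforms into 1 gene model without strand. The expected counts deposited by the authors come from exonic coverage over unambiguous spans and are not whole, and were rounded here. Reads of a gene and an overlapping gene on the other strand cannot be told apart where the models overlap. The RPKM values deposited by the authors are reads scaled to exonic length and to the mapped reads of the library, and are printed as levels.

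Genes with fewer than 10 counts summed over the tumors were left out. Differences were tested over all remaining genes with edgeR 4.0.16 (R 4.3.3, limma 3.58.1), using TMM scaling and its quasi-likelihood test in 1 fit of all 12 tumors, with Benjamini-Hochberg adjustment. A gene was called at an adjusted p under 0.1, over 1.5-fold, a mean RPKM over 0.25 and a length over 250 bases. Single genes and ratios (log2 of RPKM plus 0.1) were tested by two-sided exact permutation (scipy 1.17.1), ratios adjusted over 18 tests. Correlations used log2 CPM with a prior count of 2. The fit was tested on simulated data. Between 19845923 and 33137609 counts a tumor lay behind the values.

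Alternatives were DESeq2 1.42.0, another scaling, other filters, an adjusted p under 0.05, the 8 tumors of a comparison alone, a replicate block, the share of reads on genes as covariate, each tumor left out, and plus-dox 2 with off-dox 4 left out. Same-numbered tumors share only a number. The members, the gene lists and the tests were chosen with earlier results of these data known. The text names the 9 genes, partner chains, the 3 genes most like each, the largest differences of listed genes, and genes singled out as said there. Some items of the lists are not reported here.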

Additional observations from a re-analysis of the deposited data

Results flagged for a closer look

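Of 45 groups of 4 tumors examined for the levels and ratios of the 9 genes, 2 had a tumor whose gap to its nearest neighbour as a share of the group's whole range was above Dixon's 95% critical value, and chance gives about 1 in 20 such groups. The Col4a2 level of no-dox tumor 1, 24.96 RPKM, lay below 27.9 to 28.3 RPKM in the other no-dox tumors, with a gap of 0.880 of the range. The ratio of Nid1 to Lamc1 in plus-dox tumor 2 was 1.88 against 0.897 to 1.06 in the other plus-dox tumors, with a gap of 0.836 of the range. Leaving out no-dox 1 lowered the number of the 9 genes with an unadjusted p under 0.05 for plus-dox against no-dox tumors from 5 to 1, and leaving out plus-dox 2 lowered the fitted difference of Nid1 between plus-dox and no-dox tumors from 0.60 to 0.31 on the log2 scale.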

How the results depend on the processing

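The count of the 9 genes called was 0 under every alternative run, in each comparison. Over all genes tested, the calls for off-dox against no-dox tumors were 235, and they were 615 and 396 with DESeq2 without and with moderated fold changes, 122 with no filter, 365 with at least 10 counts in every tumor, 3 with the 8 tumors alone, 471 without plus-dox 2 and off-dox 4, and 0 with an adjusted p under 0.05, with the share of reads on genes as covariate and with the replicate block, and the cause was not tested. With 1 tumor left out they ranged from 0 (without no-dox 1, 2 or 4, plus-dox 4 or off-dox 2, 3 or 4) to 789 (without off-dox 1). The alternatives for Hspg2 and Hpse were added after seeing the data. Replicate numbers were not shown to pair the tumors, since deviations of 12 same-number pairs had a mean correlation of -0.088 (-0.449 to 0.566) against 0.0431 for 36 other pairs, and 2 of 12 tumors correlated best with their own number. With the replicate block, 4, 2 and 0 of the 9 genes had an unadjusted p under 0.05 in the 3 comparisons, and 0 were called.

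Signs turned for small differences. Without plus-dox 2 and off-dox 4, the fitted log2 differences of Col4a5 were 0.0343 (plus-dox against no-dox), -0.0218 (off-dox against no-dox) and -0.0561 (off-dox against plus-dox), Lama5 was -0.0257 for off-dox against plus-dox and Lamc1 -0.0188 for off-dox against no-dox. The ratio differences were -0.0567 for Lama4 to Lama5 (plus-dox against no-dox) and 0.0223 for Nid1 to Lamc1 (off-dox against plus-dox). The differences of mean log2 CPM in the exact tests were 0.0406, -0.0191 and -0.0597 for Col4a5, -0.0438 for Lama5, 0.1102 for Lamb3 (off-dox against plus-dox) and -0.0241 for Lamc1. With the covariate, Col4a5 was -0.0221 for off-dox against no-dox.

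With 1 tumor left out, fitted differences for off-dox against plus-dox ranged from -0.3102 to 0.0086 for Col4a1, -0.2766 to 0.0619 for Col4a2, -0.0013 to 0.2492 for Col4a5, -0.0112 to 0.1829 for Lama5, -0.1484 to 0.2722 for Lamb3 and -0.1526 to 0.0738 for Lamc1. Against no-dox tumors they ranged from -0.212 to 0.0386 (plus-dox) and -0.0294 to 0.1014 (off-dox) for Col4a5, and in off-dox from -0.1991 to 0.0252 for Lamb2 and -0.0236 to 0.2059 for Lamc1. Ratio differences ranged from -0.0791 to 0.3058 for Lama4 to Lama5 (plus-dox against no-dox), and for off-dox against plus-dox from -0.0008 to 0.5489 for Lamb3 to Lamb2, -0.1754 to 0.2045 for Lamb3 to Lamc1 and -0.324 to 0.0305 for Nid1 to Lamc1. Exact test differences ranged, for off-dox against plus-dox, from -0.3029 to 0.0016 for Col4a1, -0.2621 to 0.054 for Col4a2, -0.0006 to 0.2789 for Col4a5, -0.0222 to 0.1863 for Lama5, -0.2215 to 0.2595 for Lamb3 and -0.163 to 0.0698 for Lamc1. Against no-dox they ranged from -0.2389 to 0.0406 (plus-dox) and -0.0337 to 0.1016 (off-dox) for Col4a5, and in off-dox from -0.1933 to 0.0219 for Lamb2 and -0.0241 to 0.2087 for Lamc1.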
